A study of Mus musculus with 23 samples.

Results

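Excitation-contraction coupling turns an action potential in the muscle cell membrane into a rise of cytosolic calcium. At the triad, where a transverse tubule meets the sarcoplasmic reticulum, the voltage-sensing calcium channel of the tubule (the dihydropyridine receptor) sits opposite the ryanodine receptor, which releases calcium from the reticulum. Calsequestrin binds calcium inside the store, triadin links calsequestrin to the ryanodine receptor, junctophilin holds the facing membranes together, and the SERCA pumps return calcium to the store.

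The genes described here are the 10 listed members of this machinery, found by symbol in the deposited matrices. They are the dihydropyridine receptor subunits Cacna1s, Cacnb1 and Cacng1, the ryanodine receptor Ryr1, the store and linker genes Casq1, Casq2 and Trdn, the junctophilin Jph1 and the SERCA pumps Atp2a1 and Atp2a2. These are 10 of the 32793 rows of the matrices, and all 10 were among the 14187 genes that passed the filter on low counts.

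All 23 libraries came from C2C12, an immortalised mouse myoblast line that fuses into multinucleate myotubes when serum is withdrawn. Cells were control (WT) or labelled Runx1KO, and both genotypes were collected in growth medium with 20% FBS (day 0) and in differentiation medium with 2% horse serum on days 1, 3 and 6. Each of the 8 groups had 3 libraries of poly(A) RNA, except WT on day 0, which had 2. The way the Runx1KO cells were made, and the number of clones, are not given in the sources used here. Total counts ran from 22197606 to 23684077 per library.

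The level of Runx1 mRNA went against the label. It stood at 119.8 ± 2.15 CPM (counts scaled to a common library size by TMM; SD, n = 3) in the KO-labelled libraries on day 0 and at 84.0 ± 0.0490 CPM (SD, n = 2) in WT, and it was called higher in the KO-labelled libraries on each day. A count over the whole gene does not show whether the transcript still encodes a working protein. Every direction below is therefore given for the libraries as labelled. Of the replicate pairs, those with replicate 2 of the day 1 KO-labelled libraries differed most (chi-square per degree of freedom 62.1 and 61.7, against 3.13 to 28 elsewhere). Without this library the day 1 differences between genotypes of the coupling genes kept their direction; the log2 fold change was 1.30 for Ryr1, -0.66 for Cacng1, 1.92 for Casq1, 1.66 for Casq2, -0.58 for Atp2a1 and 0.38 for Atp2a2, all called, and the other 4 genes are given with their results.

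Markers of differentiation were followed beside the coupling genes. The summed level of 5 myotube markers (Myog, Myh3, Ckm, Acta1 and Mymk) in WT was 1.62 CPM on day 0, 32.0 on day 1, 1822 on day 3 and 1536 on day 6. In the KO-labelled libraries it was 1.92, 106, 3853 and 9381 CPM, or 1.18, 3.33, 2.11 and 6.11 times the WT level of the same day. Acta1 carried most of the day 6 sum, at 1043 CPM in WT and 6950 CPM in the KO-labelled libraries. The single markers did not move alike. On day 1 Mymk stood at 9.89 CPM in WT and 9.75 CPM in the KO-labelled libraries. On day 6 Myh3 stood at 141 and 411 CPM and Ckm at 24.1 and 421 CPM, the narrowest and widest differences among the markers. Their part in the results below was not tested. More differentiated cells and more RNA per differentiated cell cannot be told apart in these bulk samples. The myoblast markers Myod1, Myf5, Des and Pax7 were all detected in every group. On day 6 Myod1 stood at 183 ± 15.7 CPM in WT and 224 ± 5.15 in the KO-labelled libraries, Myf5 at 33.8 ± 2.97 and 26.7 ± 1.20, Pax7 at 39.9 ± 4.56 and 24.05 ± 5.28, and Des at 1574 ± 163 and 2795 ± 278 (SD, n = 3 each). The 3 smooth muscle markers summed to 440 to 527 CPM in WT and 293 to 303 CPM in the KO-labelled libraries on that day. Nearly all of it was Smtn, at 478 ± 42.8 and 294 ± 4.98 CPM (SD, n = 3 each). Cnn1 stood at 7.27 and 4.09 CPM, and Myh11 had at most 5 counts in each of those libraries. The 3 leukocyte markers summed to 2.47 to 4.77 and 9.44 to 11.5 CPM, all but 1 count of it Cd68, with Adgre1 at 0 counts and Ptprc at most 1 count in each library. Of 5 cardiomyocyte markers, 3 or 4 had at most 3 counts per library in each group, and Nkx2-5 carried nearly the whole summed level of 8.87 to 26.9 CPM.

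Windows upstream of the start site are shown for Cacna1s, Casq1, Casq2, Atp2a1 and Ryr1, because these genes were close to absent in growth medium and were among the most raised on day 3. They are RefSeq promoters of build GRCm38.p6, written along the transcript, and annotated exon bases within 250 bases of the start were left out (61 for Cacna1s, 35 for Atp2a1 and 28 for Ryr1). Capitals mark each CANNTG, the E-box core that myogenic factors such as MyoD and myogenin can bind. The windows are chr1:136052561-136052749 on the plus strand for Cacna1s, chr1:172219896-172220145 on the minus strand for Casq1, chr3:102086165-102086414 on the plus strand for Casq2, chr7:126463109-126463323 on the minus strand for Atp2a1 and chr7:29125180-29125401 on the minus strand for Ryr1.
Cacna1s: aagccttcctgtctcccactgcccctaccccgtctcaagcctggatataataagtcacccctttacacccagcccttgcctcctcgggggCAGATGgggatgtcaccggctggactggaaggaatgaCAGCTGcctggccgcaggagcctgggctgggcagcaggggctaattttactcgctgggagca
Casq1: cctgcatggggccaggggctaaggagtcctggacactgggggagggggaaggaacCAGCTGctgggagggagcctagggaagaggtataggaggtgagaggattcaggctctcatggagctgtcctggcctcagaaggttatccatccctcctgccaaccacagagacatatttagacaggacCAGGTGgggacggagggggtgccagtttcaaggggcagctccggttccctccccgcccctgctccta
Casq2: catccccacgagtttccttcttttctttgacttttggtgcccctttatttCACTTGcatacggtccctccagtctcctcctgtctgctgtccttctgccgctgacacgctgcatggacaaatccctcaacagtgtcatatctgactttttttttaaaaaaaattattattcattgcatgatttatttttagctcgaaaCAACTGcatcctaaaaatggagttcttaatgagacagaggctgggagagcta
Atp2a1: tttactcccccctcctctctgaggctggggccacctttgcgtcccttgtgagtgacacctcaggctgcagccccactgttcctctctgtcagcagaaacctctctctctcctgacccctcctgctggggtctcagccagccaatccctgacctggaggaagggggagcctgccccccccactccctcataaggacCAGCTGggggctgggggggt
Ryr1: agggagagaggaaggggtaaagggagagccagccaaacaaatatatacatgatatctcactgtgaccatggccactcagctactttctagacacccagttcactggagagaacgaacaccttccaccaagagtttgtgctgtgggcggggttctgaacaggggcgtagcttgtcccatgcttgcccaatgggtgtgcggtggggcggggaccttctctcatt

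RefSeq entries were matched for 6 of the 10 genes, the 5 shown and Cacnb1. Counted back from the start site, CANNTG began at -160 and -123 in Cacna1s, at -195 and -67 in Casq1, at -200 and -52 in Casq2 and at -55 in Atp2a1. Read on both strands (the motif is its own reverse complement in pattern), CANNTG occurs in 66.2% of the 32841 RefSeq windows of 250 bases. The narrower CAGCTG, a subset of CANNTG, occurs in 13% of those windows, and it was found in Cacna1s, Casq1 and Atp2a1. TGTGGT, the core that RUNX proteins can bind, occurs on either strand in 14% of windows. Among the windows shown it was found in Casq1 alone, where the reverse strand match began at -93. A MEF2 element, sought by its consensus on both strands and present in 2.92% of windows, was found in Casq2 at -69. The Ryr1 window held none of the 4 motifs, and of the Cacnb1 windows 1 held none and the other a CANNTG at -27 and a TGTGGT at -191. Such matches describe letters and do not show that a factor binds there.

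In the RefSeq annotation of GRCm38.p6 the genes lie on several chromosomes. The channel genes are Ryr1 at chr7:29003340-29125179 (minus strand), Cacna1s at chr1:136052806-136119822 (plus), Cacnb1 at chr11:98001508-98023034 (minus) and Cacng1 at chr11:107703218-107716476 (minus). The store and junction genes are Casq1 at chr1:172209894-172219895 (minus), Casq2 at chr3:102086415-102146514 (plus), Trdn at chr10:33083483-33476709 (plus) and Jph1 at chr1:16942104-17097922 (minus). The pump genes are Atp2a1 at chr7:126445858-126463103 (minus) and Atp2a2 at chr5:122453513-122502225 (minus). Exons of Ryr1, Cacna1s, Cacnb1, Casq1, Jph1 and Atp2a2 overlap antisense or noncoding genes, whose reads cannot be told apart from theirs without strand. Cacng1, Casq2 and Trdn had no such overlap.

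**Figure D1:**
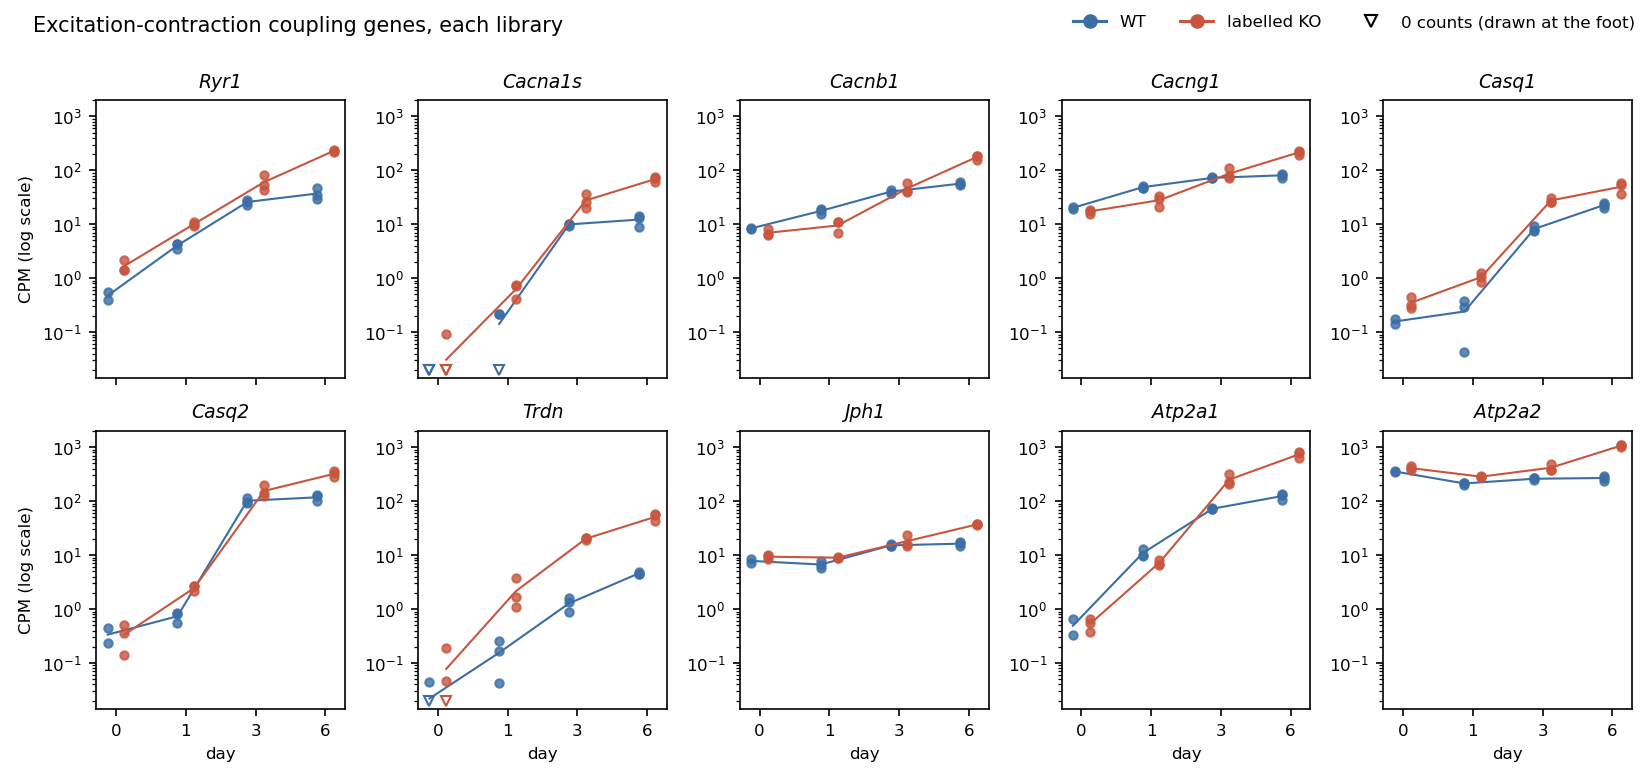
CPM (log axis) of the 10 coupling genes by day, with 1 point per library, lines through the group means, WT in blue and the KO-labelled libraries in red. Open triangles at the foot mark libraries with 0 counts. All 10 genes rise between day 1 and day 3 in both genotypes, and on day 6 the red points lie above the blue ones in all 10.

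The voltage sensor was close to absent until day 3. Cacna1s encodes the alpha-1 subunit that forms the channel pore and senses the voltage. In growth medium it had 0 counts in both WT libraries and 0, 0 and 2 counts in the KO-labelled libraries. A count of 0 allows up to 3 counts, which is 0.126 to 0.140 CPM in these libraries. On day 1 it reached 0.212, 0.00 and 0.214 CPM in WT and 0.406, 0.712 and 0.761 CPM in the KO-labelled libraries. By day 3 the WT libraries held 9.36, 10.2 and 10.2 CPM, and the KO-labelled libraries held 36.9, 20.2 and 25.7 CPM. On day 6 the WT values were 14.3, 8.96 and 13.2 CPM and those labelled KO were 59.9, 74.8 and 72.3 CPM. The genotypes did not overlap on days 1, 3 and 6. Against WT on day 0, with the floor of 3 counts in each library, WT was at least 73.3-fold higher on day 3 and at least 89.98-fold higher on day 6. The KO-labelled libraries exceeded WT by a log2 fold change of 2.11 (SE 0.68, adjusted p = 0.0156) on day 1, 1.48 (SE 0.20, adjusted p = 3.48e-06) on day 3 and 2.50 (SE 0.20, adjusted p = 8.21e-10) on day 6, in the edgeR quasi-likelihood fit, with p-values here and below adjusted after Benjamini and Hochberg. The day 1 call rests on few counts. It was lost without replicate 2 of the KO-labelled libraries (adjusted p = 0.0661) or without WT replicate 2 (adjusted p = 0.0775). It was also lost in limma on log2(TPM + 1) (0.17, adjusted p = 0.427). There the means were 0.04 TPM in WT and 0.167 TPM in the KO-labelled libraries, and adding 1 leaves little difference to call.

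The accessory subunits of the same channel were present before its pore subunit. Cacnb1, the beta-1 subunit that anchors the channel and is needed for its placement at the triad, stood at 8.09 and 8.66 CPM in WT on day 0, then at 18.4, 15.5 and 19.0 on day 1, 38.4, 38.5 and 43.6 on day 3, and 61.4, 55.6 and 53.2 on day 6. KO-labelled libraries held 8.03, 6.54 and 6.26 CPM on day 0, 10.8, 6.82 and 10.8 on day 1, 59.1, 39.04 and 41.0 on day 3, and 158, 188 and 187 on day 6. The KO-labelled libraries lay wholly below WT on day 1, overlapped WT on day 3 and lay wholly above it on day 6. The log2 fold change between genotypes was -0.90 (SE 0.16, adjusted p = 1.07e-04) on day 1, 0.21 (SE 0.14, adjusted p = 0.253) on day 3 and 1.65 (SE 0.14, adjusted p = 1.46e-09) on day 6. Without replicate 2 of the day 1 KO-labelled libraries, the lowest of its group at 6.82 CPM, the day 1 value was -0.73 (adjusted p = 7.56e-04).

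Cacng1, the muscle gamma-1 subunit, which dampens the calcium current, followed the same course at a higher level. Its WT values were 19.2 and 21.1 CPM on day 0, 47.2, 47.2 and 51.5 on day 1, 70.9, 70.9 and 75.3 on day 3, and 85.8, 83.0 and 73.3 on day 6. The KO-labelled libraries held 17.5, 18.5 and 15.8 CPM on day 0, 29.5, 21.3 and 33.0 on day 1, 108, 71.6 and 79.8 on day 3, and 191, 222 and 231 on day 6. On day 1 the highest KO-labelled library was below the lowest WT library, and on day 6 the order was the reverse. The log2 fold change was -0.80 (SE 0.14, adjusted p = 6.44e-05) on day 1, 0.26 (SE 0.13, adjusted p = 0.119) on day 3 and 1.41 (SE 0.13, adjusted p = 6.89e-09) on day 6. Across the 23 libraries, log2 CPM of Cacnb1 and Cacng1 had a Pearson correlation of 0.987, given as a description of libraries that share time points and groups.

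On the per-length TPM scale, which allows genes to be set side by side, the channel subunits were far from equal. On day 6 the Cacng1 to Cacna1s ratio of TPM was 41.4 ± 12.1 (SD, n = 3) in WT and 18.7 ± 0.675 (SD, n = 3) in the KO-labelled libraries. The Cacnb1 to Cacna1s ratio was 13.2 ± 3.04 in WT and 7.44 ± 0.417 in the KO-labelled libraries. Every WT library lay above every KO-labelled library in both ratios, and the difference was not tested. Cacna1c, which encodes the cardiac pore subunit of this channel, had 0 counts in all 23 libraries.

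Ryr1, the release channel of the sarcoplasmic reticulum, was higher in the KO-labelled libraries on every day, including growth medium. Its WT values were 0.396 and 0.556 CPM on day 0, 4.37, 3.52 and 4.27 on day 1, 23.1, 25.9 and 28.5 on day 3, and 34.2, 29.6 and 47.5 on day 6. Its KO-labelled values were 2.18, 1.45 and 1.44 CPM on day 0, 9.29, 10.1 and 11.01 on day 1, 83.4, 54.2 and 43.1 on day 3, and 241, 230 and 216 on day 6. No KO-labelled library fell within the WT range of its day. The log2 fold change was 1.82 (SE 0.52, adjusted p = 0.0167) on day 0, 1.32 (SE 0.23, adjusted p = 6.25e-05) on day 1, 1.22 (SE 0.18, adjusted p = 5.35e-06) on day 3 and 2.63 (SE 0.18, adjusted p = 2.41e-11) on day 6. The day 0 value rests on 9 and 12 counts in WT against 48, 31 and 31. Its call was lost without WT replicate 1 (adjusted p = 0.160), without WT replicate 2 (adjusted p = 0.0647) or without replicate 1 of the KO-labelled libraries (adjusted p = 0.0599). It was also lost in limma on log2(TPM + 1) (0.18, adjusted p = 0.655). There the means were 0.045 TPM in WT and 0.187 TPM in the KO-labelled libraries, and adding 1 leaves little difference to call.

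The order of the Ryr1 group means ran from the day 6 KO-labelled libraries down to WT on day 0, with each neighbouring pair of groups apart except the day 3 KO-labelled libraries and WT on day 6, whose ranges overlapped. Ryr2, the cardiac isoform, had at most 5 counts in any library. Ryr3, the isoform of developing muscle, was low and ran the other way. It stood at 0.926 ± 0.183 CPM (SD, n = 3) in the day 3 WT libraries and at 0.150 ± 0.0686 CPM (SD, n = 3) in the KO-labelled libraries. Its log2 fold change on that day was -2.59 (SE 0.53, adjusted p = 3.88e-04), and on day 6 it was -0.79 (SE 0.45, adjusted p = 0.167). On the TPM scale Cacna1s and Ryr1 were close on day 6, with a ratio of 0.810 ± 0.190 (SD, n = 3) in WT and 0.745 ± 0.118 (SD, n = 3) in the KO-labelled libraries.

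Trdn, the triadin gene, showed a larger genotype difference than the other 9 genes on days 1, 3 and 6. In WT it had 1 and 0 counts on day 0, and it then stood at 0.170, 0.254 and 0.0427 CPM on day 1, 1.61, 1.34 and 0.867 on day 3, and 4.90, 4.39 and 4.49 on day 6. The KO-labelled cultures gave 0, 4 and 1 counts on day 0, and then 1.08, 3.73 and 1.66 CPM on day 1, 20.8, 20.8 and 18.8 on day 3, and 43.1, 56.9 and 54.5 on day 6. The day 3 KO-labelled libraries were above every WT library of any day. The log2 fold change was 3.76 (SE 0.52, adjusted p = 3.92e-06) on day 1, 3.97 (SE 0.28, adjusted p = 8.79e-11) on day 3 and 3.49 (SE 0.23, adjusted p = 2.53e-11) on day 6, or 13.5-fold, 15.7-fold and 11.2-fold. Without replicate 2 of the day 1 KO-labelled libraries, the highest of its group, the day 1 value was 3.07 (adjusted p = 1.77e-05). The summed myotube markers differed 3.33-fold, 2.11-fold and 6.11-fold on the same days, with Acta1 the main part of the day 6 sum. Single markers spread widely around these values. On day 6 Ckm stood at 24.1 CPM in WT and 421 CPM in the KO-labelled libraries, a wider difference than that of Trdn. Myh3 stood at 141 and 411 CPM, a narrower one. The part of the markers in the Trdn difference was not tested.

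The calsequestrin genes code for the fast skeletal form (Casq1) and the form found in heart and slow or immature skeletal muscle (Casq2). Casq1 had 4 and 3 counts in WT on day 0 and stood at 0.0425, 0.297 and 0.384 CPM on day 1, 7.40, 7.97 and 9.11 on day 3, and 24.8, 20.4 and 22.8 on day 6. Its KO-labelled values were 0.454, 0.280 and 0.324 CPM on day 0, 1.04, 1.26 and 0.850 on day 1, 26.2, 25.3 and 31.1 on day 3, and 36.6, 54.4 and 57.3 on day 6. In CPM the day 3 KO-labelled libraries lay above even the day 6 WT libraries, narrowly. In TPM these Casq1 ranges overlapped, at 29.0 to 34.4 and 23.9 to 32.1. Its log2 fold change was 2.10 (SE 0.42, adjusted p = 3.44e-04) on day 1, 1.75 (SE 0.16, adjusted p = 8.62e-09) on day 3 and 1.12 (SE 0.15, adjusted p = 1.86e-06) on day 6, with no test here of the change between those days. On day 0 the value was 1.14 (SE 0.68, adjusted p = 0.299).

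On the log scale Casq2 rose mostly between day 1 and day 3. In CPM the day 3 mean was 86.3% of the day 6 mean in WT and 48.2% in the KO-labelled libraries. WT values were 0.440 and 0.231 CPM on day 0, 0.849, 0.551 and 0.811 on day 1, 92.4, 98 and 115 on day 3, and 131, 99.5 and 124 on day 6. The KO-labelled libraries held 0.363, 0.140 and 0.510 CPM on day 0, 2.12, 2.64 and 2.64 on day 1, 197, 122 and 143 on day 3, and 279, 327 and 355 on day 6. The genotypes overlapped on day 0 and were apart afterwards. From day 1 to day 3 Casq2 rose by a log2 fold change of 7.10 (SE 0.23, adjusted p = 6.37e-16) in WT and 5.96 (SE 0.20, adjusted p = 2.42e-16) in the KO-labelled libraries. Between genotypes the log2 fold change was 1.74 (SE 0.32, adjusted p = 1.53e-04) on day 1, 0.60 (SE 0.14, adjusted p = 1.40e-03) on day 3 and 1.44 (SE 0.14, adjusted p = 1.82e-08) on day 6. The day 3 call was lost in limma on log2(TPM + 0.1), at 0.43 (adjusted p = 0.178), and without replicate 1 of the day 3 KO-labelled libraries the value was 0.39 (adjusted p = 0.0240).

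Jph1, the skeletal junctophilin, moved least over the course among the genes that rose in WT. It ranged from 7.17 to 8.47 CPM in WT on day 0, 5.68 to 7.89 on day 1, 14.8 to 15.9 on day 3 and 14.9 to 17.6 on day 6. The matching KO-labelled ranges were 8.45 to 10.1, 8.75 to 9.25, 14.5 to 23.99 and 35.8 to 38.0 CPM. The genotypes overlapped on days 0 and 3 and were apart on days 1 and 6. The log2 fold change was 0.42 (SE 0.15, adjusted p = 0.0293) on day 1 and 1.18 (SE 0.13, adjusted p = 1.59e-07) on day 6. The day 1 call was lost without replicate 2 of the KO-labelled libraries (adjusted p = 0.0597) and in 9 other alternatives. Jph2, the other muscle junctophilin, stood higher than Jph1 in TPM in every group, at 65.4 against 6.13 TPM in WT on day 6 and 131 against 12.7 TPM in the KO-labelled libraries. Its log2 fold change between genotypes on day 6 was 1.14 (SE 0.11, adjusted p = 1.64e-08).

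The pumps behaved unlike each other. Atp2a2 encodes SERCA2, the pump of heart, slow muscle and, in another splice form, most cell types. It was the most abundant of the 10 genes in growth medium, at 352 and 359 CPM in WT and 378, 409 and 443 CPM in the KO-labelled libraries. On day 1 it stood at 220, 199 and 220 CPM in WT and 282, 288 and 283 CPM in the KO-labelled libraries, on day 3 at 267, 266 and 248 CPM against 498, 374 and 382 CPM, and on day 6 at 274, 240.0 and 292 CPM against 998, 1109.7 and 1087 CPM. In CPM WT never regained its growth medium level, while all day 6 KO-labelled libraries were above every other library. In TPM the WT ranges overlapped, at 96.6 to 100.4 on day 0 and 74.0 to 110.8 on day 6. Atp2a2 fell in WT by 0.74 (log2, SE 0.10, adjusted p = 2.07e-06) from day 0 to day 1, and it was still lower on day 6, by a log2 fold change of -0.40 (SE 0.10, adjusted p = 1.69e-03). In the KO-labelled libraries it fell on day 1, with a log2 fold change of -0.53 (SE 0.09, adjusted p = 5.22e-05), and on day 6 it had risen by 1.38 (SE 0.09, adjusted p = 7.36e-12). Between genotypes the log2 fold change was 0.42 (SE 0.09, adjusted p = 1.01e-03) on day 1, 0.68 (SE 0.09, adjusted p = 2.85e-06) on day 3 and 1.99 (SE 0.10, adjusted p = 7.95e-14) on day 6.

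Atp2a1 encodes SERCA1, the pump of fast skeletal muscle. WT libraries held 0.660 and 0.324 CPM on day 0, 9.85, 9.50 and 13.2 on day 1, 70.5, 71.96 and 74.7 on day 3, and 138, 105 and 130.2 on day 6. The KO-labelled libraries held 0.544, 0.653 and 0.371 CPM on day 0, 6.49, 6.99 and 8.28 on day 1, 317, 206 and 229 on day 3, and 635, 802 and 781 on day 6. They lay below WT on day 1 and above it on days 3 and 6. The log2 fold change was -0.58 (SE 0.18, adjusted p = 0.0103) on day 1, 1.79 (SE 0.14, adjusted p = 8.31e-10) on day 3 and 2.57 (SE 0.15, adjusted p = 1.25e-12) on day 6. The day 1 call was lost without WT replicate 3, the highest of its group (-0.42, adjusted p = 0.0853). An exon of Atp2a1 overlaps Rabep2 on the other strand, and the strand setting of the counting is not given in the sources used here. Rabep2 itself had 365 to 663 counts per library, while Atp2a1 had at most 15 counts on day 0.

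**Figure D2:**
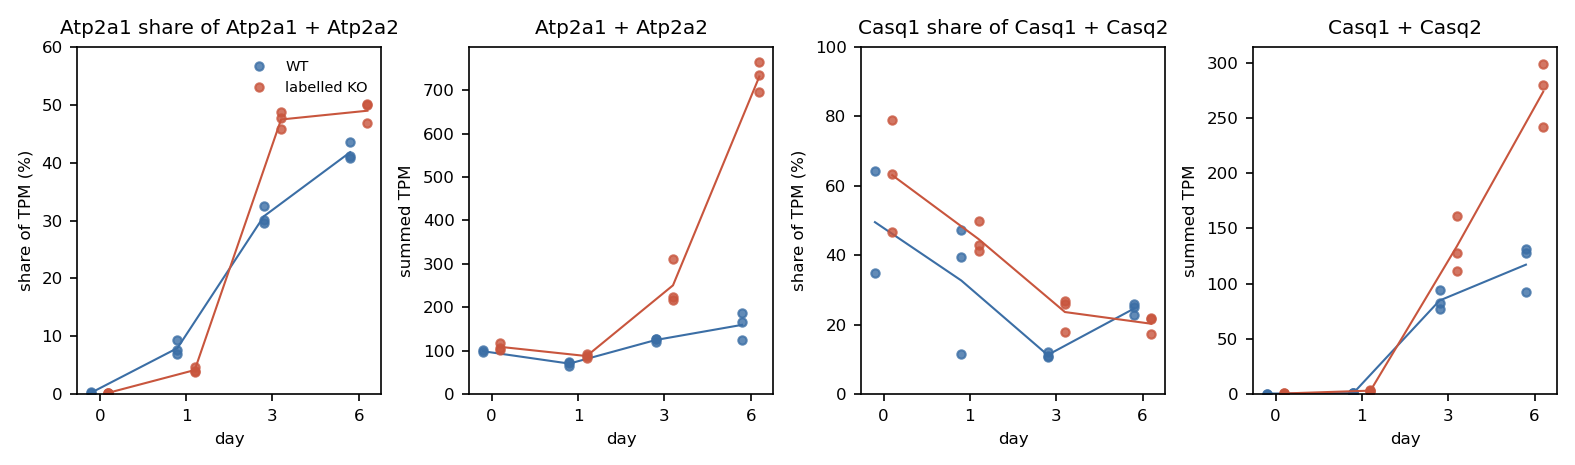
Share of Atp2a1 in the summed TPM of Atp2a1 and Atp2a2, the sum itself, and the same for Casq1 and Casq2, by day. Points are libraries and lines join group means; the Atp2a1 share is higher in WT on day 1 and higher in the KO-labelled libraries on days 3 and 6, and the Casq sums are under 1 TPM on day 0 and in WT on day 1, so those shares rest on few reads.

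The balance of pump isoforms was followed as the share of Atp2a1 in the summed TPM of both SERCA genes. In WT it was 0.236% ± 0.115 (SD, n = 2) on day 0, 7.95% ± 1.21 (SD, n = 3) on day 1, 30.7% ± 1.57 on day 3 and 41.8% ± 1.53 on day 6. In the KO-labelled libraries it was 0.220% ± 0.0668 (SD, n = 3), 4.15% ± 0.507, 47.5% ± 1.46 and 49.0% ± 1.84. The groups did not overlap on days 1, 3 and 6, and the direction on day 1 was opposite to that on days 3 and 6. The share labelled KO minus WT was -3.80 points on day 1, 16.7 on day 3 and 7.18 on day 6. Its mean over these days, 6.71 points, gave an exact permutation p of 0.0187 (two-sided, labels permuted within days, 8000 arrangements, 18 libraries; 0.0375 after adjustment for the 2 shares tested). That adjusted value rose to about 0.051 when WT replicate 1 of day 1, or replicate 2 or 3 of the day 6 KO-labelled libraries, was left out. The summed TPM of both pumps on day 6 was 159 ± 31.2 in WT and 731 ± 34.8 in the KO-labelled libraries (SD, n = 3 each).

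The share of Casq1 in both calsequestrins differed in direction between days. On day 1 it was 32.7% ± 18.9 in WT, from 1, 7 and 9 Casq1 counts, and 44.7% ± 4.55 in the KO-labelled libraries (SD, n = 3 each), a difference of 11.9 points. On day 3 it was 11.3% ± 0.673 in WT and 23.6% ± 4.92 in the KO-labelled libraries, and on day 6 it was 24.6% ± 1.57 and 20.3% ± 2.57 (SD, n = 3 each). The mean difference over days 1, 3 and 6 was 6.65 points, with an exact permutation p of 0.114 (two-sided, adjusted 0.114), and it did not pass the test. On leaving out each library in turn the difference ran from 3.11 to 9.10 points. The highest value was without WT replicate 2 of day 1 (adjusted exact permutation p = 0.0340). Casq2 supplied more TPM than Casq1 in each library of days 3 and 6.

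**Figure D3:**
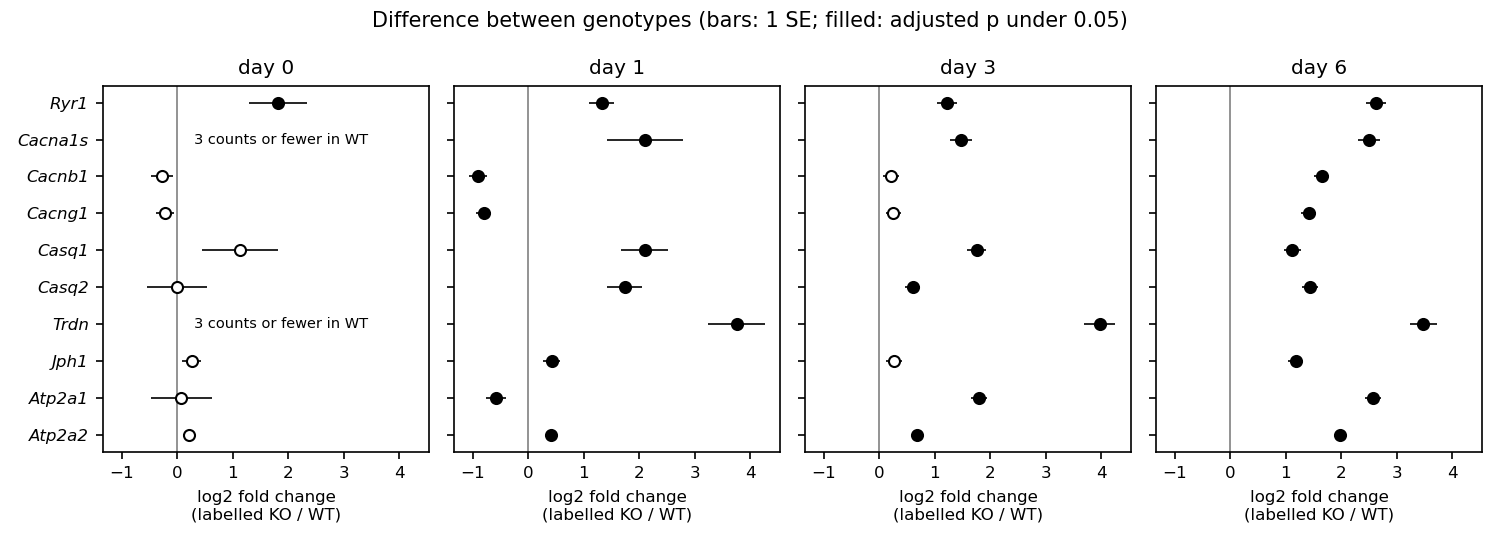
Log2 fold change between the KO-labelled libraries and WT for each coupling gene on days 0, 1, 3 and 6. Bars are 1 SE, worked back from the edgeR test statistic, and filled points have an adjusted p under 0.05. On day 1 Cacnb1, Cacng1 and Atp2a1 lie left of 0 and the other 7 genes right of it, and on day 6 all 10 lie to the right, from 1.12 to 3.49. Cacna1s and Trdn on day 0 are left out because no WT library had more than 3 counts.

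Set against all tested genes, the 10 genes changed from mixed to uniform. On day 0, 1 of the 10 (Ryr1) was called higher in the KO-labelled libraries, where 7.36% of the 14187 tested genes were called higher and 10.1% lower. On day 1, 7 of the 10 were called higher (22.9% of all genes) and 3 lower (19.2% of all genes). The 7 were Ryr1, Cacna1s, Casq1, Casq2, Trdn, Jph1 and Atp2a2, and the 3 were Cacnb1, Cacng1 and Atp2a1. On day 3, 7 of the 10 were called higher, against 24% of all genes, and Cacnb1, Cacng1 and Jph1 were not called. On day 6 all 10 were called higher, against 22% of all genes. The median log2 fold change of the 10 was 0.23, 0.87, 0.95 and 1.82 on days 0, 1, 3 and 6, while that of all tested genes lay between -0.00105 and 0.0403. The group ranges did not overlap for 5, 10, 7 and 10 of the 10 genes on these days, and for 51.7%, 47.1%, 60.3% and 51.7% of all tested genes, so the separation on days 0 and 3 was near the background. Leaving out replicate 2 of the day 1 KO-labelled libraries left 5 higher and 3 lower on that day. In the day 3 KO-labelled libraries, replicate 1 was the highest for 9 of the 10 genes, and its myotube markers summed to 5451 CPM, and those of the other two replicates to 2926 and 3181 CPM. Without it, 7 of the 10 were called higher on day 3. The balance of all calls moved with the scale: 55.5% of the genes called on day 3 were higher in the KO-labelled libraries in edgeR and 34.3% in limma on log2(TPM + 1), and on day 6 the shares were 51.4% and 34.9%.

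The course over time was followed within each genotype. From day 0 to day 1, 4 of the 10 genes rose in WT (Ryr1, Cacnb1, Cacng1 and Atp2a1; 27.1% of all genes rose) and 1 fell (Atp2a2; 27.6% of all genes fell). Among KO-labelled libraries, 8 rose (27.2% of all genes) and 1 fell (Atp2a2; 25.2% of all genes fell). By day 3, 9 stood above growth medium in WT (29.2% of all genes) and 9 in the KO-labelled libraries (30.4%). In each case Atp2a2 was the exception. On day 6 the counts were 9 in WT (32.6%) and 10 in the KO-labelled libraries (36.6%). These comparisons within a genotype share the day 0 libraries of that genotype.

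Steps between neighbouring days were tested too. All 10 genes rose from day 1 to day 3 in WT, where 11% of all genes rose, and in the KO-labelled libraries, where 15.5% rose. From day 3 to day 6, 4 of the 10 rose in WT (Cacnb1, Casq1, Trdn and Atp2a1), against 4.87% of all genes. All 10 rose over the last step in the KO-labelled libraries, against 20.2% of all genes, with log2 fold changes from 0.84 for Casq1 to 1.94 for Cacnb1. Expressed as a share of the day 6 mean, WT on day 3 stood at 96.9% for Atp2a2, 92.8% for Jph1, 89.7% for Cacng1 and 86.3% for Casq2. It stood at 81.5% for Cacna1s, 70.9% for Cacnb1, 69.6% for Ryr1 and 58.2% for Atp2a1. The share is not a rise from 0. In WT on day 0 Atp2a2 stood at 132% of its day 6 mean and Jph1 at 47.9%. In the KO-labelled libraries the day 3 level ran from 26.1% of the day 6 mean for Cacnb1 to 55.7% for Casq1. Casq1 and Trdn were the genes for which WT had the smaller share, at 36.0% and 27.7%, against 55.7% and 39.04%. The difference between genotypes in this last step was not tested here.

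**Figure D4:**
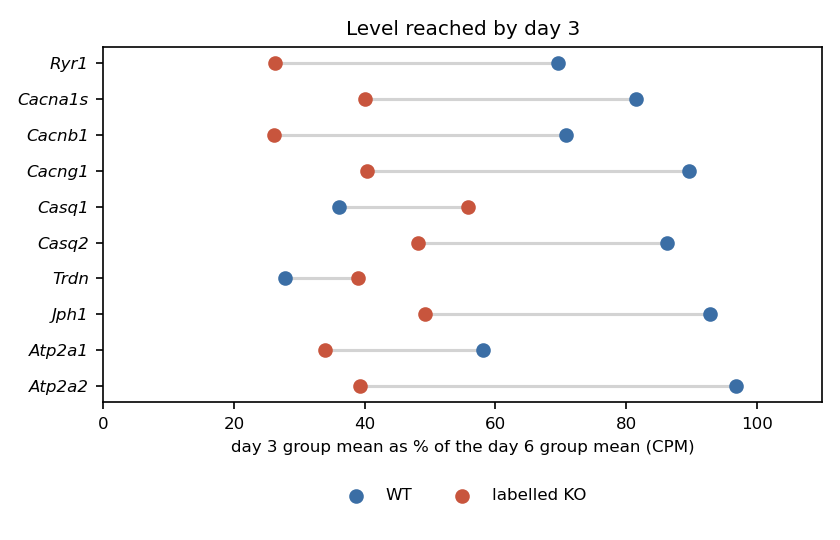
Day 3 group mean as a percentage of the day 6 group mean (CPM) for each coupling gene, WT in blue and the KO-labelled libraries in red. For 8 genes WT lies to the right, between 58.2% and 96.9%, and for Casq1 and Trdn the order is reversed. Day 0 is not drawn, and Atp2a2 in WT stood at 132% of its day 6 mean on that day.

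The difference between genotypes in the change since growth medium was tested as an interaction. For day 1, edgeR called 0 of the 10 genes (3 at an unadjusted p under 0.05; 1 in DESeq2, and 2 and 3 in limma on log2(TPM + 1) and log2(TPM + 0.1)), and 3.95% of all genes. For day 3 it called Atp2a2 (0.48 on the log2 scale, SE 0.14, adjusted p = 0.0277), against 10.7% of all genes, and this call was lost under RLE scaling and on leaving out any of 7 of the 11 libraries (0.33 to 0.55 over all 11, adjusted p from 0.0142 to 0.156). The 7 were both WT libraries of day 0, WT replicates 2 and 3 of day 3, KO-labelled replicates 1 and 2 of day 0 and KO-labelled replicate 1 of day 3. For day 6 it called 5 of the 10, against 13% of all genes, while limma called 10 on log2(TPM + 1) and 9 on log2(TPM + 0.1). These were Atp2a1 (2.49, SE 0.62, adjusted p = 7.73e-03), Cacnb1 (1.92, SE 0.24, adjusted p = 5.42e-06), Atp2a2 (1.78, SE 0.14, adjusted p = 4.05e-09), Cacng1 (1.63, SE 0.21, adjusted p = 5.72e-06) and Jph1 (0.92, SE 0.22, adjusted p = 4.84e-03). In all 5 the change since day 0 was higher in the KO-labelled libraries than in WT. The other 5 (Ryr1, Cacna1s, Casq1, Casq2 and Trdn) were not called in edgeR. They had at most 12 counts in a WT library of day 0, so their change since then is poorly measured (Trdn 1.93, SE 3.01). A missing call does not show an equal change. Atp2a1, which was called, had at most 15 counts there. In limma the added 1 or 0.1 TPM shrinks differences between such low values on day 0.

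The levels themselves were ordered on the TPM scale. In WT on day 6 the order was Cacng1 (139 TPM), Atp2a2 (92.8), Casq2 (88.4), Atp2a1 (66.7), Cacnb1 (44.9), Casq1 (28.7), Jph1 (6.13), Ryr1 (4.48), Trdn (4.05) and Cacna1s (3.55). The ranges of neighbours overlapped for Atp2a2 with Casq2, Casq2 with Atp2a1, and along the last 4 from Jph1 to Cacna1s. On day 6 the KO-labelled order was Atp2a2 (373 TPM), Atp2a1 (359), Cacng1 (338), Casq2 (218), Cacnb1 (134), Casq1 (55.9), Trdn (38.4), Ryr1 (24.5), Cacna1s (18.1) and Jph1 (12.7). In that order Atp2a1 overlapped with its neighbours Atp2a2 and Cacng1, and no other neighbours overlapped. Trdn stood ninth of 10 in WT and the seventh in the KO-labelled libraries.

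Across the 23 libraries the 10 genes followed one another to different degrees, as a description of log2 CPM in libraries that share groups and days. The highest correlation was 0.989, between Cacna1s and Casq2. Atp2a2 had the lowest, from 0.385 with Atp2a1 to 0.754 with Jph1. Of 10657 genes ranked, those near to Ryr1 included Camk2a (r = 0.985), Otud1 (0.984), Bcl6 (0.983) and Hrc (0.980). Those nearest to Atp2a2 were Dnaja3 (0.971), Hspb8 (0.968), Slc12a2 (0.958), Il20rb (0.955) and Plet1 (0.947).

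A further 36 coupling genes set the 10 in context, of which 31 passed the filter on low counts. Between genotypes 3 were called higher and 3 lower on day 0, 4 and 11 on day 1, 14 and 8 on day 3, and 15 and 7 on day 6. Over all tested genes the shares called higher and lower were 7.36% and 10.1% on day 0, 22.9% and 19.2% on day 1, 24% and 19.2% on day 3, and 22% and 20.8% on day 6, so the counts on day 0 and the count of lower genes on day 6 were near the background. Without replicate 2 of the day 1 KO-labelled libraries, 4 were higher and 9 lower on day 1. The day 1 counts were 3 and 6 in limma on log2(TPM + 1), and also with only the groups compared. On day 6 their median log2 fold change was 0.55, below the 1.82 of the 10 genes. By role on day 6, 5 of 13 channel and channel-partner genes were higher and 4 lower, 3 of 3 store-entry genes were higher, 3 of 6 store genes were higher and 1 lower, 3 of 5 membrane-junction genes were higher and 1 lower, and 1 of 4 pump-related genes was higher and 1 lower. These counts stand beside 22% of all genes higher and 20.8% lower, and the 1 of 4 pump-related genes each way is near that background.

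Partners of the store and the release channel were among the raised genes. Hrc, a histidine-rich calcium-binding protein of the reticulum, stood at 14.6 ± 0.881 CPM in WT and 70.4 ± 11.8 CPM in the KO-labelled libraries on day 6 (SD, n = 3 each; log2 fold change 2.27, SE 0.15, adjusted p = 2.74e-11). Srl, the sarcalumenin gene, stood at 66.8 ± 11.5 and 300.5 ± 14.6 CPM (2.17, SE 0.16, adjusted p = 1.15e-10). Jsrp1, whose product JP-45 binds the dihydropyridine receptor and calsequestrin, stood at 34.4 ± 4.58 and 123 ± 15.6 CPM (1.84, SE 0.12, adjusted p = 1.49e-11). On day 1 Jsrp1 was lower in the KO-labelled libraries, with a log2 fold change of -0.63 (SE 0.13, adjusted p = 3.85e-04), or -0.51 (adjusted p = 2.02e-03) without replicate 2 of those libraries. Stac3, an adaptor needed for the voltage sensor to reach and work at the triad, was higher already in growth medium, at 8.67 ± 0.574 CPM (SD, n = 3) against 2.15 ± 0.301 CPM (SD, n = 2) in WT (2.01, SE 0.18, adjusted p = 1.39e-08). On day 1 its groups overlapped (0.18, SE 0.11, adjusted p = 0.226), and on day 6 it was again higher (1.78, SE 0.12, adjusted p = 1.73e-11).

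**Figure D5:**
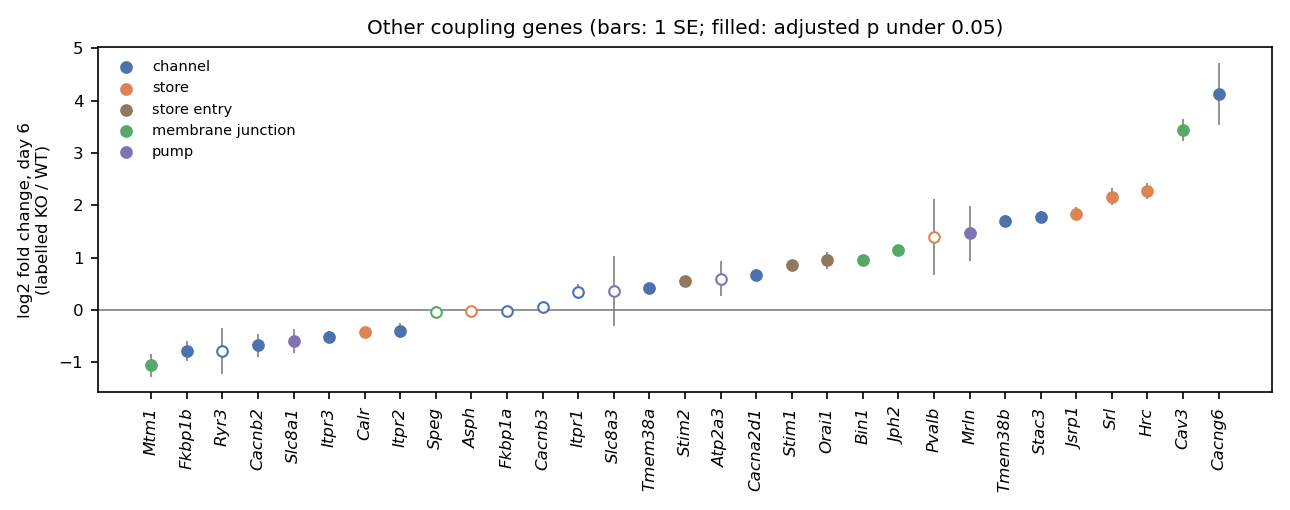
Log2 fold change between the KO-labelled libraries and WT on day 6 for the 31 other coupling genes tested, ordered by size and coloured by role, with bars of 1 SE and filled points for an adjusted p under 0.05. The 15 filled points above 0 include Hrc, Srl, Jsrp1 and Stac3, and the 7 below 0, a share near that of all genes, include Mtm1, Fkbp1b, Itpr3 and Calr.

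The other named genes of the list went in both directions, and the number lower on day 6 was near the background given above. Fkbp1b, which encodes a calstabin that binds ryanodine receptors, was lower on all 4 days, at 4.20 ± 1.13 against 7.26 ± 0.658 CPM on day 6 (SD, n = 3 each; log2 fold change -0.79, SE 0.19, adjusted p = 1.61e-03). Mtm1, the myotubularin phosphatase, was lower on days 1, 3 and 6, with -1.06 on day 6 (SE 0.22, adjusted p = 4.19e-04). Calr, the calreticulin of the endoplasmic reticulum, was lower on the same days, at -0.41 on day 6 (SE 0.08, adjusted p = 1.15e-04), though its day 1 call was lost without KO-labelled replicate 2 (adjusted p = 0.0734). Itpr3, an inositol trisphosphate receptor, was lower on day 6 (-0.51, SE 0.11, adjusted p = 5.56e-04), and its day 1 call was likewise lost without KO-labelled replicate 2 (adjusted p = 0.0555). Itpr1, its relative, was higher on days 0, 1 and 3 and was not called on day 6 (0.35, SE 0.14, adjusted p = 0.0521). Stim2, a calcium sensor of store-operated entry, was higher on days 1, 3 and 6 (0.55 on day 6, SE 0.07, adjusted p = 6.52e-07). Atp2a3, the SERCA3 isoform, had at most 35 counts in any library and was called lower on days 0, 1 and 3 (day 1 lost without KO-labelled replicate 2, adjusted p = 0.0894), while on day 6 its value was 0.60 (SE 0.33, adjusted p = 0.153).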

How the data were processed

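Poly(A) RNA of 23 C2C12 libraries was sequenced. The authors aligned with Bowtie2 and quantified with RSEM on build mm10, per the submitters' processing notes, and deposited the resulting estimated counts and TPM values per gene as matrices of the whole series. Versions, annotation and the strand setting are not given in the sources used here. The series text puts the last time point at 5 days, and the sample titles, followed here, at day 6.

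Estimated counts were rounded, filtered (filterByExpr, minimum count 10, minimum total 15) and scaled by TMM. One edgeR 4.0.16 quasi-likelihood fit over all 8 groups (R 4.3.3) gave 17 contrasts. Benjamini-Hochberg adjustment covered all 14187 genes, and an adjusted p under 0.05 was a call. The edgeR test gives no SE, so each SE here is the absolute log2 fold change divided by the square root of the F statistic. It is approximate, and at low counts it can fail. For the Casq1 interaction on day 6 it was 0.232, below the 0.350 in WT and 0.252 in the KO-labelled libraries for the changes since day 0. CPM used TMM-scaled library sizes. Isoform shares used TPM and an exact permutation test within days. Alternatives used DESeq2 1.42.0, limma 3.58.1, other scalings and filters, a replicate block, and leaving out each library. Tested on simulated data for day 6 (13745 genes, 200 changed), the fit recovered 69.7% of 1.5-fold, 84.4% of 2-fold and 93.9% of 4-fold changes, with 2.99% of calls false. The simulation gave all other genes the same mean in every group. In the data 42.9% of genes were called on day 6, so these rates need not hold there.

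The genes and lists were chosen with earlier results of these data known. Named genes were the 10 members, Runx1, other coupling genes called on at least 3 of 4 days with a group mean of at least 5 CPM, the isoform counterparts Ryr2, Ryr3, Cacna1c, Jph2 and Atp2a3, and the 5 nearest patterns to Ryr1 and Atp2a2. One of these genes is not reported here. The labels do not say that replicates were separate cultures, so p-values measure the spread between these samples, which may be technical. Intervals of counts at 0 cover counting error only.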

Additional observations from a re-analysis of the deposited data

Results flagged for a closer look

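Each value here is the log2 change since day 0 in the KO-labelled libraries minus that in WT, and each passed edgeR's test of the difference itself after Benjamini-Hochberg adjustment over all genes. On day 1 the change was larger in the KO-labelled libraries for 0 and smaller for 2 of the 31 other coupling genes tested. Over all genes the shares were 2.64% and 1.31%. The 2 were Stac3 (-1.84, adjusted p = 4.12e-05) and Jsrp1 (-1.46, adjusted p = 6.35e-04). Without replicate 2 of the day 1 KO-labelled libraries the values were -1.94 and -1.37. Both genes stood above WT in growth medium.

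On day 3 the change was larger for 5 and smaller for 2 of the 31 other coupling genes tested, against 6.65% and 4.06% of all genes, so the number of smaller changes was near the background. Among those named it was smaller for Stac3 (-0.76, adjusted p = 0.0241) and Itpr3 (-0.71, adjusted p = 5.75e-03), and larger for Stim2 (0.38, adjusted p = 0.0179). Of the 10 members it was larger for 1, Atp2a2 (0.48, adjusted p = 0.0277), a count near the background share of 6.65%. The Atp2a2 call was lost under RLE scaling and on leaving out any of 7 of 11 libraries.

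On day 6 it was larger for 5 of the 10 members: Atp2a1 (2.49), Cacnb1 (1.92), Atp2a2 (1.78), Cacng1 (1.63) and Jph1 (0.92). In limma the number of members was 10 on log2(TPM + 1) and 9 on log2(TPM + 0.1). Of the 31 other coupling genes it was larger for 10 and smaller for 1, against 7.54% and 5.42% of all genes, and among those named it was larger for Atp2a3 (2.26, adjusted p = 8.52e-03, from at most 35 counts), Srl (1.74, adjusted p = 1.06e-04), Jsrp1 (1.01, adjusted p = 3.09e-03), Jph2 (0.94, adjusted p = 3.97e-04) and Stim2 (0.41, adjusted p = 9.51e-03). Itpr3 was the 1 with a smaller change (-0.51, adjusted p = 0.0419), a count no higher than the background share.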

How the results depend on the processing

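All 10 members were called higher in the KO-labelled libraries on day 6 whichever of the 6 libraries of that day was left out. On day 0 the number of members called was 1, and it was 0 in limma on log2(TPM + 1), 2 with only the groups compared, and 0 to 1 on leaving out a library. The interaction for day 1 called 0 members, and 1 with no filter, 1 in DESeq2, 2 and 3 in limma on log2(TPM + 1) and log2(TPM + 0.1), and 0 to 1 on leaving out a library. That for day 3 called 1, and 0 under RLE scaling, 2 with no filter, 2 in DESeq2, 4 and 2 in limma, and 0 to 2 on leaving out a library. That for day 6 called 5, and 10 and 9 in limma. Of the other coupling genes, 15 were called on day 1, and 9 in limma on log2(TPM + 1) and 9 with only the groups compared. In limma the added 1 or 0.1 TPM shrinks differences between low values, such as many of the day 0 values. The cause of these shifts was not tested.

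The Atp2a1 share difference ran from 6.49 to 7.06 points on leaving out a library, and that of Casq1 from 3.11 to 9.10. Signs turned for values that were not called: Casq2 on day 0 was 0.012 under RLE scaling, 0.0016 with no filter, 0.013 in DESeq2, 0.0010 with only the groups compared, and -0.41 to 0.55 on leaving out a library; Atp2a1 on day 0 ran from -0.33 to 0.70 on leaving out a library; Cacna1s on day 0 had at most 2 counts and fitted values of 0 to 3.24, which are no measure of size; Cacnb1 on day 3 ran from -0.0066 (without replicate 1 of the KO-labelled libraries) to 0.32.

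Replicate numbers did not pair the samples: same-numbered libraries correlated in their deviations by 0.0488, 0.00302, 0.0173 and -0.0940 on days 0, 1, 3 and 6. With a replicate block 1, 10, 7 and 10 members were called between genotypes on those days.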
